A study of Rattus norvegicus with 12 samples.

Results

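Blood vessels consist of an inner lining of endothelial cells and an outer layer of mural cells, the pericytes of capillaries and the smooth muscle cells of larger vessels. Mature cartilage carries no vessels of its own, and its chondrocytes are supplied by diffusion from the synovial and bone sides. At the age studied here a secondary ossification center, with vessels and marrow, lies between the articular cartilage and the growth plate. A list of 33 genes that mark endothelial and mural cells was followed through 3 cartilage zones of the rat tibia. It was chosen with earlier results of these data known. The members were taken by gene symbol from the annotation of the array, and 26 of the 33 had a transcript cluster, the array's unit for a gene, that carried their symbol alone. Of these 26 among 14300 genes with a symbol, 17 are endothelial and 9 are mural. The remaining 7, Pecam1, Mmrn2, Vwf, Kdr, Ptprb, Eng and Acta2, were not analysed here. Abcc9 had 2 clusters, and the one with the higher mean signal over all arrays was used.

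The samples came from the proximal tibial epiphyses of 8 Sprague-Dawley rats at 10 days of age, with no treatment named. The superficial zone (SZ) and the intermediate/deep zone (IDZ) of the articular cartilage and the resting zone (RZ) of the growth plate were cut by hand from stained sections and measured on 4 arrays each. An SZ sample held both tibias of 1 animal, whereas an IDZ or RZ sample pooled the tibias of 2 animals. In the fit of all arrays every p-value rests on 1 spread per cluster. That spread mixes single animals in SZ with pools of 2 animals elsewhere, also for IDZ against RZ. Animals 5 to 8 gave SZ samples 1 to 4 and, in pairs, IDZ and RZ samples 3 and 4. Soft tissue had been trimmed from the epiphyses and a strip between zones discarded, but cells were not sorted, so that each sample is a mixture in which fewer cells of a type and less RNA per cell cannot be told apart. Values are log2 signals after robust multi-array averaging (RMA), where 1 unit is a 2-fold difference, and they carry no detection call. A member was called when it had an adjusted p under 0.05 in limma and differed at least 2-fold, and it passed when it met the p alone.

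The chondrocyte genes of the list used to check the tissue were bright in every zone, with a mean over 10 genes of 11.08 to 11.56 in SZ, 12.46 to 12.50 in IDZ and 12.34 to 12.52 in RZ. Array medians ranged from 6.76 to 6.90. SZ sample 4 had an interquartile range of 2.24 against 2.50 to 2.91 on the other 11 arrays, and its part in the results was examined by leaving it out.

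Upstream sequence was available for 15 of the 26 members. Endothelial genes are bound by ETS transcription factors, among them the member Fli1, and the letters AGGAAG, a common ETS core, were therefore looked up on both strands of the 250 bases before each start site (RefSeq, build GRCr8). The core was present in 29.5% of all 33469 windows of this length, in 8 of the 15 members and in 7 of the 11 members with a window that were called higher in SZ than IDZ. Members are counted once here, although Egfl7 has 2 windows, and by window the core was present in 8 of 16. The longer CAGGAAGT, which contains the core, was present in 2.48% of all windows and in 2 of the 15 members, Egfl7 and Rhoj. The windows below are those of the 5 members that the table holds among the 8 with the largest difference between SZ and IDZ, and that of Rhoj, the member called in every comparison. They run 5′ to 3′ in the direction of the gene, end at the base before the start site and show the core, or its complement CTTCCT for a match on the other strand, in capitals. The Emcn window (chr2:228564289-228564538, plus strand) held the core at 243 and 162 bases before the start, the Plvap window (chr16:18231280-18231529, minus strand) at 98 and 81 and the Rhoj window (chr6:99771133-99771382, plus strand) at 183 and 15, the last within CAGGAAGT. The windows of Cd34 (chr13:109008536-109008785, plus strand), Rgs5 (chr13:84380827-84381076, plus strand) and Calcrl (chr3:89932617-89932866, minus strand) did not hold these letters.
Cd34: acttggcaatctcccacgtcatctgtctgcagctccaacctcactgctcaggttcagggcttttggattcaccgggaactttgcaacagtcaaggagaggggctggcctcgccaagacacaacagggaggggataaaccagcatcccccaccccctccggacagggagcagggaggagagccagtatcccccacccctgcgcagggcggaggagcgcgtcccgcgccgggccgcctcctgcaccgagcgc
Emcn: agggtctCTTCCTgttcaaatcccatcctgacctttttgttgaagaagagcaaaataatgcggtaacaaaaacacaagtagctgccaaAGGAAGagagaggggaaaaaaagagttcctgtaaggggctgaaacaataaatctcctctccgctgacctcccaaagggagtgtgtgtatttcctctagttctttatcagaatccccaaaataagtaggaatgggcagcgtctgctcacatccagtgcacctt
Plvap: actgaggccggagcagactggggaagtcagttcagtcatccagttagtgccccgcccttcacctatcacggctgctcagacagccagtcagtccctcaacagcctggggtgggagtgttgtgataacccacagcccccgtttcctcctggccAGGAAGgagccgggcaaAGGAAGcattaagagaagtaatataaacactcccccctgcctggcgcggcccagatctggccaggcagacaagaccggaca
Calcrl: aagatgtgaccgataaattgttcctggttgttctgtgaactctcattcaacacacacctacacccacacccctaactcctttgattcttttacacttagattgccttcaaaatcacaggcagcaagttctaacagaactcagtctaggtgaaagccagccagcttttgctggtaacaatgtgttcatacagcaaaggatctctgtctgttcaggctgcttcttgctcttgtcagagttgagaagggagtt
Rgs5: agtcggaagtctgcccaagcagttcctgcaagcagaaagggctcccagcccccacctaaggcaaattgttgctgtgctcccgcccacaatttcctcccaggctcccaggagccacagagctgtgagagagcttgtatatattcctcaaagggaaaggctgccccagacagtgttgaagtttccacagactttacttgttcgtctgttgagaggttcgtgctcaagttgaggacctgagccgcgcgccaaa
Rhoj: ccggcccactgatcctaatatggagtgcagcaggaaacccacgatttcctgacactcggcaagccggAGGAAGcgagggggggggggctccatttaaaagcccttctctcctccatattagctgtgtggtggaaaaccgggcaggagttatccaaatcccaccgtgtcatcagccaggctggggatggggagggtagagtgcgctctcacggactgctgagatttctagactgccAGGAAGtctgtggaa

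The first comparison set the surface of the articular cartilage against its deeper layer. Most vessel genes were higher in SZ: 20 of the 26 members were called higher in SZ than IDZ, 14 of 17 endothelial and 6 of 9 mural genes, and none was called higher in IDZ. Over all 27342 clusters 2.96% were called higher in SZ and 0.977% higher in IDZ. Without the 2-fold minimum 23 members passed as higher in SZ and 1, Cspg4, as higher in IDZ, against 11.8% and 11.2% of all clusters. When SZ sample 4 was left out the same members passed, but the shares of all clusters rose to 18.1% and 23.5%. In 22 members every SZ array lay above every IDZ array, as in 10.2% of all clusters, while every IDZ array lay above every SZ array in 12.1% of clusters. The median difference over the members was 1.88 on the log2 scale, beside -0.03 over all genes. In the plot of signals by array the SZ points stand apart to the right for most genes.

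**Figure D1:**
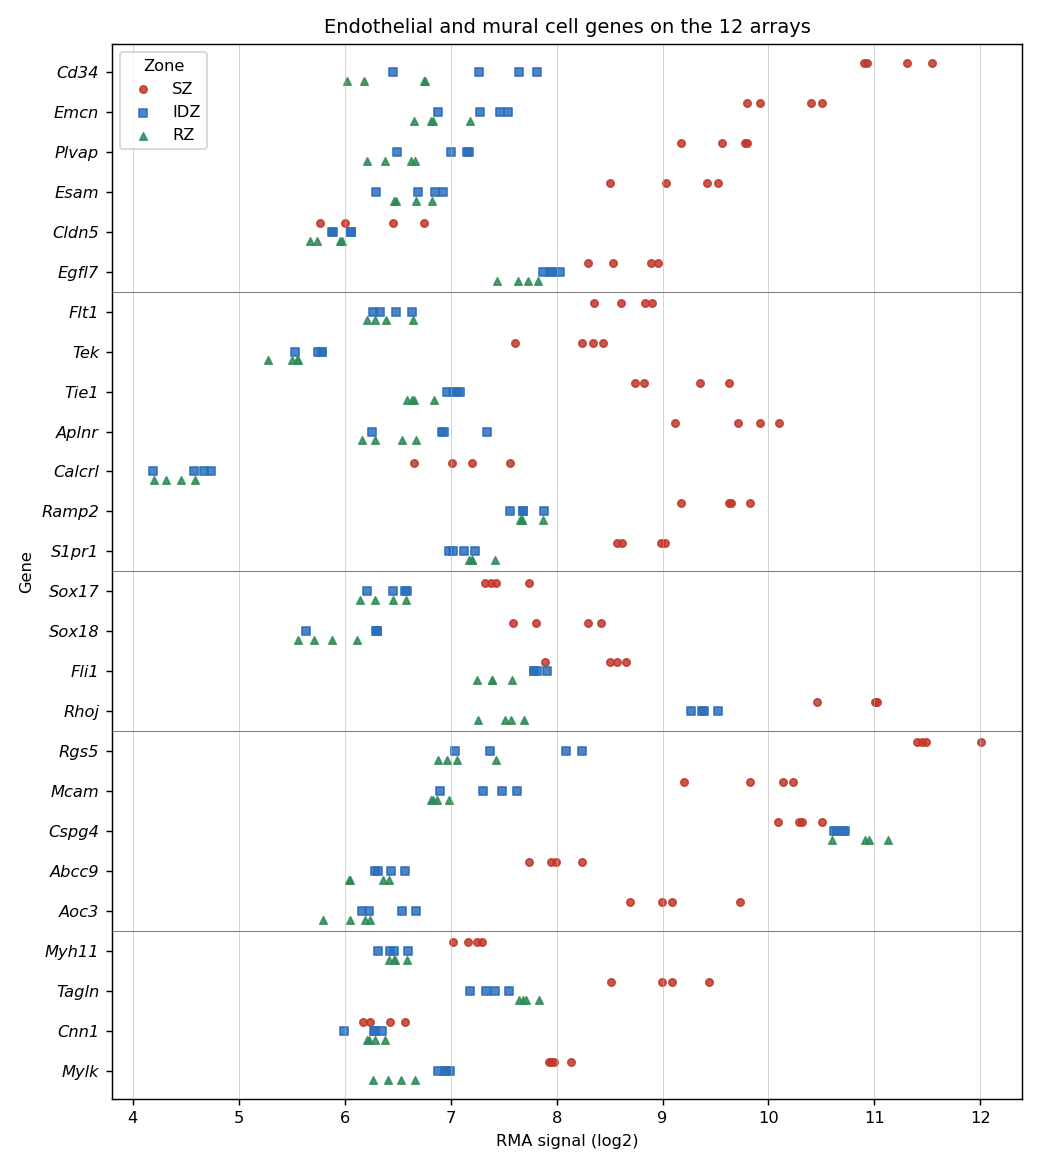
RMA signal (log2) of the 26 members on each of the 12 arrays, with red circles for SZ, blue squares for IDZ and green triangles for RZ, grouped from top to bottom into endothelial surface genes, endothelial receptors, endothelial regulators, pericyte genes and smooth muscle genes. In 22 members the 4 SZ arrays lie above all 4 IDZ arrays, while Cspg4 has its SZ arrays below both other zones and Cldn5 and Cnn1 overlap throughout.

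Among the endothelial surface genes 4 of 6 were called, 1 passed below 2-fold and 1 did not pass. Cd34, a sialomucin of endothelial and hematopoietic progenitor cells that fibroblast-like stromal cells also carry, measured 11.55, 11.31, 10.93 and 10.90 on SZ arrays 1 to 4, 7.65, 7.81, 7.27 and 6.46 on the IDZ arrays and 6.18, 6.76, 6.75 and 6.02 on the RZ arrays. The SZ arrays lay far above the others, whereas IDZ and RZ overlapped through IDZ sample 4. SZ exceeded IDZ by 3.88 (SE 0.26, 14.7-fold, adjusted p = 6.0e-08) and RZ by 4.74 (SE 0.26, 26.8-fold, adjusted p = 3.5e-09).

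Emcn, endomucin of venous and capillary endothelium, had SZ signals of 10.50, 10.40, 9.92 and 9.80, IDZ signals of 7.47, 7.54, 7.28 and 6.88 and RZ signals of 6.82, 7.18, 6.83 and 6.66. Its lowest SZ array stood above the highest array of either other zone, which overlapped each other. The SZ minus IDZ difference was 2.86 (SE 0.18, 7.28-fold, adjusted p = 3.1e-08). Plvap forms the diaphragms of fenestrated endothelium, and its signals were 9.78, 9.79, 9.56 and 9.17 in SZ, 7.18, 7.15, 7.00 and 6.49 in IDZ and 6.21, 6.63, 6.67 and 6.38 in RZ. Again SZ did not overlap with the other zones, and RZ reached into the range of IDZ through IDZ sample 4. SZ exceeded IDZ by 2.62 (SE 0.17, 6.15-fold, adjusted p = 4.6e-08).

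Esam, an adhesion molecule of endothelial junctions, ranged from 8.51 to 9.52 in SZ, 6.30 to 6.93 in IDZ and 6.46 to 6.83 in RZ, a difference of 2.43 (SE 0.20, adjusted p = 3.5e-07) between SZ and IDZ. Egfl7, a secreted factor of endothelium, passed below 2-fold at 0.72 (SE 0.14, adjusted p = 0.0011). Cldn5, the claudin of endothelial tight junctions, did not pass in any comparison. It measured 6.45, 6.00, 5.76 and 6.75 in SZ, 6.06, 6.06, 5.88 and 5.89 in IDZ and 5.68, 5.73, 5.98 and 5.96 in RZ. The SZ arrays of Cldn5 spread across both other zones, and the difference from IDZ was 0.27 (SE 0.17, adjusted p = 0.29) with a 95% interval of -0.09 to 0.63. All Cldn5 signals lay below every array median, so the interval holds for the signal and a 2-fold difference in RNA is not excluded. Without SZ sample 3 Cldn5 passed as higher in SZ than RZ at 0.56 (limma, adjusted p = 0.015).

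Of the endothelial receptors 7 of 7 were called higher in SZ than IDZ, with no overlap between these zones and a median difference of 2.25. Aplnr, the G protein-coupled receptor of apelin, measured 9.92, 10.10, 9.71 and 9.12 in SZ, 7.34, 6.92, 6.93 and 6.26 in IDZ and 6.28, 6.54, 6.67 and 6.17 in RZ. SZ stood apart, and IDZ and RZ overlapped. The SZ minus IDZ difference was 2.85 (SE 0.22, 7.20-fold, adjusted p = 2.8e-07). Calcrl encodes the receptor subunit that binds adrenomedullin when paired with Ramp2, and it measured 7.56, 7.20, 7.01 and 6.65 in SZ, 4.58, 4.74, 4.67 and 4.19 in IDZ and 4.31, 4.45, 4.59 and 4.20 in RZ. The mean of Calcrl over the 12 arrays lay within the dimmest 25% of clusters, and SZ lay above both other zones, by 2.56 (SE 0.17, 5.90-fold, adjusted p = 5.6e-08) over IDZ. Its partner Ramp2, which carries the receptor to the cell surface, ranged from 9.17 to 9.83 in SZ and 7.56 to 7.88 in IDZ, a difference of 1.86 (SE 0.13, adjusted p = 6.7e-08).

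Tek and Tie1 are the paired receptor tyrosine kinases of the angiopoietin system. Tek differed by 2.45 (SE 0.15, adjusted p = 3.0e-08) and Tie1 by 2.10 (SE 0.16, adjusted p = 1.9e-07) between SZ and IDZ. Flt1, a receptor for VEGFA and PGF that limits VEGFA signaling, ranged from 8.35 to 8.90 in SZ and 6.26 to 6.64 in IDZ and differed by 2.24 (SE 0.13, adjusted p = 2.3e-08). S1pr1, the sphingosine-1-phosphate receptor that steadies endothelial junctions, differed by 1.71 (SE 0.12, adjusted p = 6.6e-08).

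The ligands of these receptors did not share one direction. Vegfa, the main growth factor for endothelium, was lower in SZ, at 9.46, 9.05, 8.94 and 8.95 against 10.49, 10.39, 10.06 and 9.82 in IDZ and 10.20, 9.94, 10.14 and 9.71 in RZ. No SZ array reached the other zones, and SZ minus IDZ was -1.09 (SE 0.16, 2.12-fold, adjusted p = 0.00014). Angpt1, the activating ligand of Tek, measured 7.03, 7.08, 7.40 and 6.90 in SZ, 8.71, 8.60, 9.00 and 9.29 in IDZ and 8.33, 8.25, 7.55 and 7.75 in RZ. The zones were fully separated with IDZ on top, by 0.93 (SE 0.19, 1.91-fold, adjusted p = 0.0060) over RZ, and SZ minus IDZ was -1.80 (SE 0.19, 3.48-fold, adjusted p = 4.0e-06). Angpt2, the context-dependent antagonist of Angpt1 that endothelium itself makes, passed the other way at 0.73 (SE 0.13, adjusted p = 0.00073).

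Pgf, a further Flt1 ligand, was higher in SZ by 0.88 (SE 0.13, adjusted p = 0.00013), below 2-fold. Vegfb, which also binds Flt1, passed in the other direction at -0.55 (SE 0.09, adjusted p = 0.00050). Apln, the ligand of Aplnr, did not pass between SZ and IDZ at 0.24 (SE 0.12, adjusted p = 0.17) but passed between SZ and RZ at 0.48 (SE 0.12, adjusted p = 0.0081). Adm, adrenomedullin, ran from 7.97, 7.44, 7.24 and 7.23 in SZ over 8.21, 7.94, 7.77 and 7.92 in IDZ to 9.24, 8.77, 8.74 and 8.74 in RZ. RZ lay above both articular zones, which overlapped. Between these 2 zones Adm passed as lower in SZ, with SZ minus IDZ at -0.49 (SE 0.16, adjusted p = 0.044). Adm was lower in SZ than RZ by 1.40 (SE 0.16, adjusted p = 1.2e-05) and lower in IDZ than RZ by 0.91 (SE 0.16, adjusted p = 0.0028). Over the 14 measured genes of the ligand list, 2 were called higher in SZ than IDZ, Pdgfb at 1.60 (SE 0.13, adjusted p = 5.2e-07) and Dll4 at 1.50 (SE 0.18, adjusted p = 2.0e-05), and 3 higher in IDZ, Angpt1, Vegfa and Adm2. The shares of all clusters called were 2.96% higher in SZ and 0.977% higher in IDZ. Endothelial cells can make both genes called higher in SZ, Pdgfb as a signal that recruits pericytes and Dll4 as a Notch ligand of sprouting tips. Which cells of the mixed samples gave these signals was not tested. The median of the ligand list was 0.08.

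**Figure D2:**
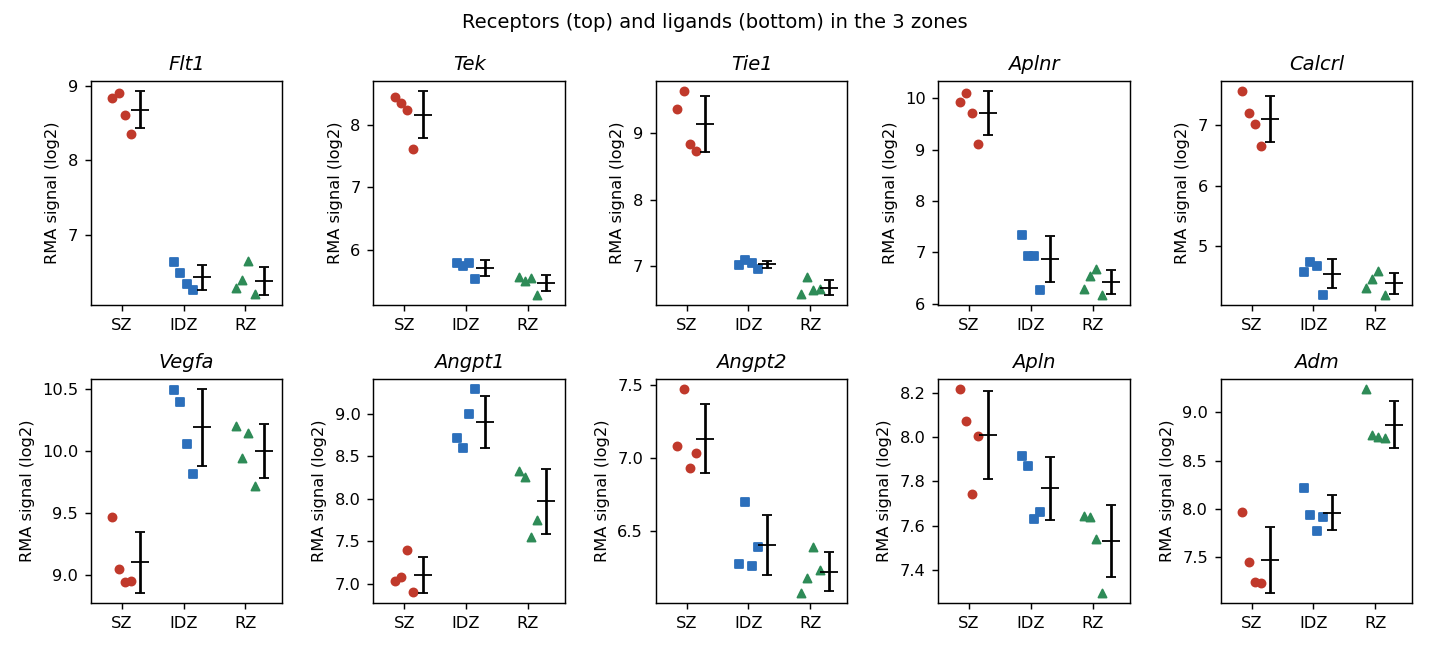
RMA signal (log2) of 5 endothelial receptor genes (top) and 5 ligand genes (bottom) on the 4 arrays of each zone, with the mean ± SD in black beside the points; each panel has its own vertical scale, which does not start at 0. The receptors share 1 shape with SZ on top, whereas Vegfa and Angpt1 are lowest in SZ and Adm is highest in RZ.

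Of the 4 endothelial regulators 3 were called higher in SZ than IDZ. Sox17 and Sox18 are transcription factors of arterial and lymphatic specification. Sox18 ranged from 7.59 to 8.42 in SZ and 5.63 to 6.31 in IDZ and differed by 1.89 (SE 0.20, adjusted p = 4.2e-06). Sox17 lay at the 2-fold threshold with 1.01 (SE 0.12, adjusted p = 2.4e-05), and it fell below 2-fold without SZ sample 1 (0.92) or IDZ sample 4 (0.93). Fli1, the ETS factor, passed at 0.58 (SE 0.14, adjusted p = 0.0070) with 1 SZ array inside the range of IDZ. Rhoj, a regulator of endothelial migration, differed by 1.49 (SE 0.13, 2.81-fold, adjusted p = 9.9e-07), and it is described with the deeper zones below.

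Pericyte genes gave 4 of 5 calls. Rgs5, a regulator of G protein signaling that is a standard pericyte marker, measured 12.01, 11.45, 11.40 and 11.49 in SZ, 8.24, 8.09, 7.37 and 7.04 in IDZ and 6.97, 7.43, 7.06 and 6.88 in RZ. The SZ arrays stood far above the rest, and IDZ and RZ overlapped through IDZ samples 3 and 4. SZ exceeded IDZ by 3.90 (SE 0.23, 15.0-fold, adjusted p = 2.1e-08) and RZ by 4.50 (SE 0.23, 22.7-fold, adjusted p = 1.7e-09). Aoc3, the amine oxidase of smooth muscle and adipocyte surfaces, had signals of 9.73, 9.09, 9.00 and 8.70 in SZ, 6.67, 6.54, 6.16 and 6.23 in IDZ and 5.80, 6.05, 6.24 and 6.19 in RZ. SZ was again separate from both other zones, by 2.73 (SE 0.19, 6.63-fold, adjusted p = 7.0e-08) over IDZ.

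Mcam, an adhesion molecule of pericytes and endothelium, measured 10.14, 10.23, 9.83 and 9.20 in SZ, 7.48, 7.63, 7.31 and 6.90 in IDZ and 6.82, 6.98, 6.83 and 6.87 in RZ. No SZ array overlapped with the deeper zones, and SZ minus IDZ was 2.52 (SE 0.19, 5.74-fold, adjusted p = 2.5e-07). Abcc9, the sulfonylurea receptor subunit of the vascular potassium channel, differed by 1.58 (SE 0.12, adjusted p = 2.7e-07) and its channel partner Kcnj8 by 1.21 (SE 0.16, adjusted p = 5.2e-05). The second cluster of Abcc9 gave the same call.

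Cspg4 went against the rest of the pericyte genes. It encodes the NG2 proteoglycan of pericytes, which chondrocytes also make, and measured 10.09, 10.50, 10.29 and 10.32 in SZ, 10.73, 10.70, 10.64 and 10.62 in IDZ and 11.13, 10.95, 10.91 and 10.60 in RZ. The SZ arrays lay below all others. Cspg4 was lower in SZ than IDZ by 0.37 (SE 0.12, adjusted p = 0.029) and lower than RZ by 0.60 (SE 0.12, adjusted p = 0.0012). The difference from IDZ no longer passed without SZ sample 1 (adjusted p = 0.10), SZ sample 3 (adjusted p = 0.056) or IDZ samples 1, 2 and 3 in turn (adjusted p = 0.072, 0.072 and 0.057).

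The 4 contractile genes of smooth muscle had a median difference of 0.89, below that of the other groups of members. Tagln, an actin-binding protein that myofibroblasts also make, was called at 1.64 (SE 0.15, adjusted p = 1.5e-06). Mylk, the kinase of the myosin light chain, lay near the threshold at 1.05 (SE 0.10, adjusted p = 1.3e-06) with arrays of 7.93 to 8.14 in SZ and 6.88 to 6.99 in IDZ. Myh11, the smooth muscle myosin heavy chain, passed below 2-fold at 0.73 (SE 0.09, adjusted p = 3.3e-05). Cnn1, calponin of mature smooth muscle, passed in no comparison. Its signals were 6.42, 6.24, 6.17 and 6.57 in SZ, 6.28, 5.99, 6.35 and 6.28 in IDZ and 6.21, 6.38, 6.29 and 6.22 in RZ, and the 3 zones overlapped. The difference from IDZ was 0.13 (SE 0.11, adjusted p = 0.45) with a 95% interval of -0.10 to 0.36. All Cnn1 signals lay below every array median and carry no detection call. The interval therefore holds for the signal, where it does not reach 2-fold, and at this level a 2-fold difference in RNA is not excluded.

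**Figure D3:**
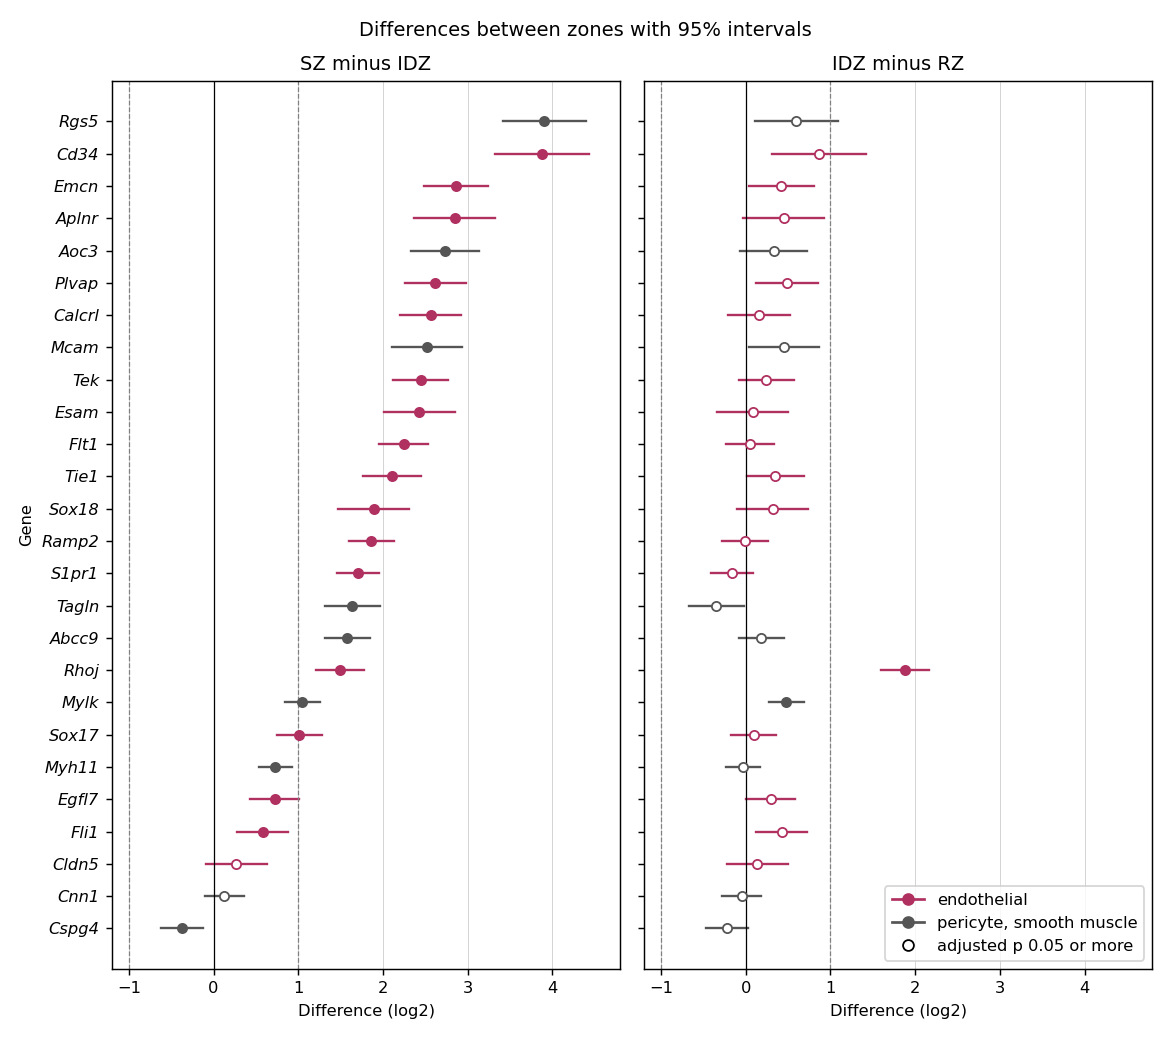
Differences of the 26 members on the log2 scale with 95% intervals from the limma fit, SZ minus IDZ on the left and IDZ minus RZ on the right, in the order of the left panel; filled points have an adjusted p under 0.05 and dashed lines mark 2-fold. On the left 24 points are filled and 20 of them lie beyond 2-fold, and on the right Rhoj and Mylk are filled and only Rhoj lies beyond 2-fold.

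Next, the deeper articular zone was set against the growth plate. Few vessel genes reached 2-fold: 1 of 26 members, Rhoj, was called higher in IDZ than RZ and none higher in RZ, beside 0.519% and 0.399% of all clusters. Without the 2-fold minimum 2 passed, Rhoj and Mylk, both higher in IDZ, against 2.78% and 3.95% of all clusters higher in IDZ and in RZ. The median difference was 0.27 beside 0.01 over all genes. Some members lay below every array median in both zones, such as Tek at means of 5.71 in IDZ and 5.47 in RZ and Calcrl at 4.55 and 4.39. Others, such as Cspg4 and Egfl7, lay above. The values carry no detection call, so a small difference at low signal does not show equal RNA in IDZ and RZ. Each IDZ sample and the RZ sample with its number were cut from the same 2 animals. With the pair of animals as a block in a fit of these 2 zones alone, the call at 2-fold was the same, but 11 members passed as higher in IDZ and 1, Tagln, as higher in RZ, while 6.08% and 8.50% of all clusters passed. Besides Rhoj and Mylk the 11 were Cd34, Emcn, Plvap, Egfl7, Tek, Tie1, Fli1, Rgs5 and Mcam. The fit of the same 2 zones without the block passed 8 members higher in IDZ and Tagln higher in RZ, against 6.26% and 8.91% of all clusters. With the pair of animals as a random block in the fit of all arrays, only Rhoj and Mylk passed, against 2.14% and 3.12% of all clusters. The correlation within pairs that this random block used was estimated at -0.14. The count also moved with single arrays. Without SZ sample 4 it was 6 members higher in IDZ and Tagln higher in RZ, against 5.75% and 8.61% of all clusters, and without IDZ sample 4 it was 5 members higher in IDZ, against 2.31% higher in IDZ and 3.19% higher in RZ.

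Rhoj differed from the other members in that both steps were called. It measured 11.02, 11.03, 11.01 and 10.46 in SZ, 9.37, 9.39, 9.53 and 9.27 in IDZ and 7.57, 7.69, 7.51 and 7.26 in RZ. The zones formed 3 separate levels with no overlap. IDZ exceeded RZ by 1.88 (SE 0.13, 3.69-fold, adjusted p = 4.1e-07) and SZ exceeded IDZ by 1.49. Mylk also had 3 separate levels in this order but with smaller steps, and its IDZ lay above RZ by 0.48 (SE 0.10, adjusted p = 0.0065), below 2-fold.

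The next largest differences between IDZ and RZ belonged to Cd34, Rgs5 and Plvap, whose arrays are given above. Cd34 differed by 0.87 (SE 0.26, adjusted p = 0.061), Rgs5 by 0.60 (SE 0.23, adjusted p = 0.16) and Plvap by 0.49 (SE 0.17, adjusted p = 0.11), and none passed. In each of the 3 genes IDZ sample 4 was the lowest IDZ array. Without IDZ sample 4, Cd34 was called at 1.15 (limma, adjusted p = 0.0057).

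On the RZ side the differences were small. Tagln measured 9.44, 9.09, 9.00 and 8.51 in SZ, 7.33, 7.55, 7.42 and 7.18 in IDZ and 7.71, 7.84, 7.68 and 7.65 in RZ. Its 4 RZ arrays lay above the 4 IDZ arrays, but the IDZ minus RZ difference of -0.35 (SE 0.15, adjusted p = 0.22) did not pass in the fit of all arrays. S1pr1 had 9.02, 8.98, 8.62 and 8.57 in SZ, 7.23, 7.12, 7.02 and 6.98 in IDZ and 7.20, 7.41, 7.18 and 7.20 in RZ, with overlap of the deeper zones and a difference of -0.16 (SE 0.12, adjusted p = 0.52). Cspg4 and Cnn1 gave -0.22 (SE 0.12, adjusted p = 0.32) and -0.05 (SE 0.11, adjusted p = 0.86).

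SZ was then set against RZ, a comparison that uses the same SZ and RZ arrays as those above. Here 22 of 26 members were called higher in SZ and none higher in RZ, beside 3.19% and 1.35% of all clusters. On the p alone 23 members passed as higher in SZ and Cspg4 as higher in RZ, beside 10.0% and 11.1% of all clusters. The median difference was 2.25 beside -0.01 over all genes. Egfl7 at 1.01 and Fli1 at 1.003 stood at the 2-fold threshold, and both fell under it when the arrays were centred on their medians or quantile normalized again. Both also fell under it without SZ sample 1, SZ sample 2 or RZ sample 1, and Fli1 without SZ sample 3, RZ sample 2 or RZ sample 3 as well, to between 0.92 and 0.9992. By zone means 20 members had the order SZ, IDZ, RZ from high to low, 5 the order SZ, RZ, IDZ and 1, Cspg4, the order RZ, IDZ, SZ.

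The zones were also compared within the animals they shared, without a test. In animals 5 and 6, 24 of 26 members were higher in the mean of the 2 SZ arrays than in the IDZ array, with a median of 2.06, and in animals 7 and 8, 25 were, with a median of 1.72. Cspg4 was the exception in both and Cnn1 in the first. For IDZ against RZ, 23, 20, 17 and 20 of 26 members were higher in IDZ in the 4 pairs of animals from 1 and 2 to 7 and 8. The medians were 0.43, 0.27, 0.16 and 0.07. The share of all genes higher in the same zone was not taken within pairs, so these counts stand without a reference.

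Level also varied between animals inside a zone. SZ sample 4 was the lowest SZ array in 21 of 26 members, IDZ sample 4 the lowest IDZ array in 17 and RZ sample 4 the lowest RZ array in 15. These samples came from animals 7 and 8, with SZ sample 4 from animal 8 alone. In SZ 22 of 26 members were lower in animals 7 and 8 than in animals 5 and 6, with a median difference of -0.42, and 19 were in IDZ (-0.17) and 19 in RZ (-0.21). Over all genes 56.8%, 47.0% and 51.5% were lower in the 3 zones. Macrophage genes were lower in 10 of 10, 7 of 10 and 7 of 10 cases. They were not alone: in SZ 10 of 12 fibroblast, 6 of 6 erythroid and 14 of 15 further mural genes were lower. By contrast 0 of 10 chondrocyte and 2 of 5 adipocyte genes were lower there. In IDZ 14 of 17 endothelial members but 5 of 9 mural members, 10 of 18 further endothelial and 6 of 15 further mural genes were lower. The part of the narrow signal range of SZ sample 4 and of other cell types in this pattern was not tested. The SZ arrays stayed apart from the others at this size of variation, with a mean over the 17 endothelial genes of 8.53 to 9.13, against 6.65 to 7.02 in IDZ and 6.43 to 6.66 in RZ, which overlapped.

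**Figure D4:**
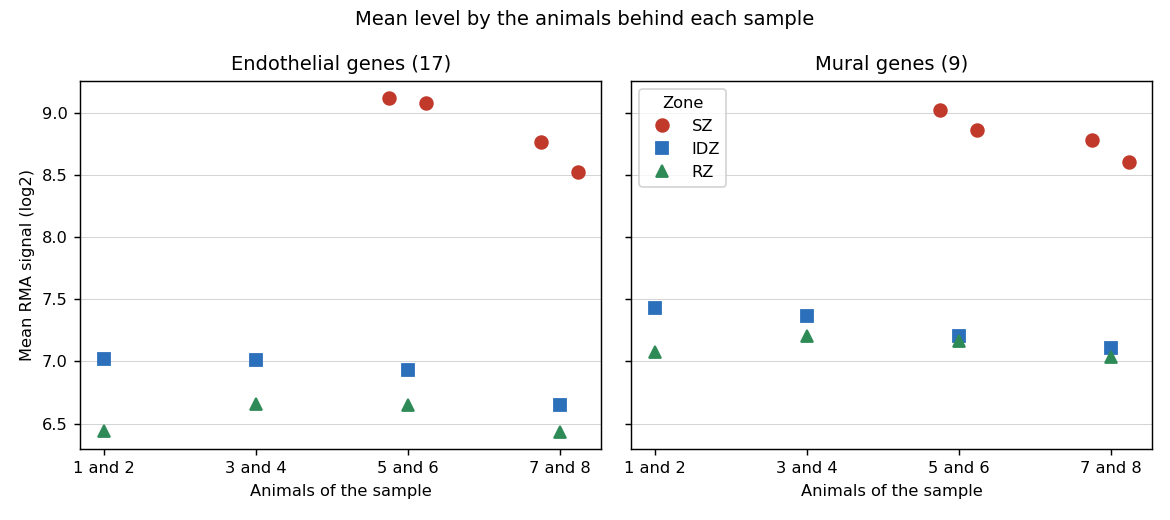
Mean RMA signal (log2) of the 17 endothelial members (left) and the 9 mural members (right) in each sample, placed by the animals it came from, with SZ samples of single animals side by side within a pair; the vertical scale does not start at 0. The samples of animals 7 and 8 are the lowest of their zone, and the SZ samples lie between 8.53 and 9.13 on the left and between 8.61 and 9.02 on the right, above all others.

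Most listed vessel wall genes outside the members were also higher in SZ. Of 18 further endothelial genes measured, 8 were called and 15 passed as higher in SZ than IDZ and none as higher in IDZ. Their median was 0.79. Among all clusters 2.96% were called and 11.8% passed as higher in SZ. The members, this list and those below were chosen with earlier results of these data known, so their counts add no independent support. Adgrf5 and Adgrl4, adhesion G protein-coupled receptors of endothelium, differed by 3.22 (SE 0.18, adjusted p = 1.3e-08) and 2.80 (SE 0.13, adjusted p = 3.6e-09). Cd93, a C-type lectin of endothelium, differed by 3.01 (SE 0.17, adjusted p = 1.4e-08) and Tinagl1, a matricellular protein, by 3.16 (SE 0.25, adjusted p = 3.0e-07). Esm1, Tal1 and Efnb2 did not pass. Efnb2, an ephrin of arterial endothelium, was lower in SZ than RZ by 1.49 (SE 0.19, adjusted p = 3.1e-05).

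Of 15 further mural genes 9 were called and 10 passed as higher in SZ than IDZ, beside 2.96% and 11.8% of all clusters. In the other direction 2, Cox4i2 and Lmod1, passed as higher in IDZ, beside 11.2% of all clusters. The median was 1.21. Notch3, the Notch receptor of mural cells, differed by 2.77 (SE 0.18, adjusted p = 5.0e-08). Gucy1a1 and Gucy1b1, subunits of the nitric oxide receptor that relaxes smooth muscle, differed by 1.81 (SE 0.12, adjusted p = 5.6e-08) and 1.39 (SE 0.12, adjusted p = 5.1e-07). Pdgfrb, the receptor for the pericyte signal Pdgfb, which fibroblasts also carry, differed by 1.71 (SE 0.11, adjusted p = 3.1e-08) and was higher in IDZ than RZ as well, by 0.80 (SE 0.11, adjusted p = 0.00023).

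Lymphatic genes were mixed. Lyve1, a hyaluronan receptor of lymphatic endothelium and of some macrophages, was called at 1.39 (SE 0.14, adjusted p = 3.5e-06), and Flt4, the VEGFC receptor, passed at 0.97 (SE 0.10, adjusted p = 6.2e-06). Prox1, the transcription factor that defines lymphatic endothelium, ranged from 5.38 to 5.80 in SZ, 5.39 to 5.66 in IDZ and 5.44 to 5.66 in RZ, with overlap of all zones. Its SZ minus IDZ difference was -0.01 (SE 0.11, adjusted p = 0.97), with a 95% interval of -0.24 to 0.22. All Prox1 signals lay below every array median, so the interval holds for the signal and a 2-fold difference in RNA is not excluded.

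Markers of other tissues that border the cartilage moved with the vessel genes between SZ and IDZ. All 10 macrophage genes were called higher in SZ, with a mean level of 8.46 to 9.58 in SZ, 6.85 to 6.92 in IDZ and 6.51 to 7.19 in RZ. Of 12 fibroblast genes 11 passed as higher in SZ, and their mean level was 10.93 to 11.30 in SZ, 9.20 to 9.56 in IDZ and 8.15 to 8.55 in RZ. All 3 tendon genes and 4 of 5 adipocyte genes passed as higher in SZ, whereas 9 of 10 chondrocyte genes passed as higher in IDZ. Of the other lists, 1 of 6 bone genes, Ctsk, passed as higher in SZ. As higher in IDZ, 1 of 6 bone, 1 of 6 skeletal muscle and 1 of 3 glial genes passed. Among all clusters 2.96% were called higher in SZ, and 11.8% passed as higher in SZ and 11.2% as higher in IDZ.

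Erythroid genes mark red blood cells and their precursors in marrow. None of 6 passed between SZ and IDZ in limma and 0 had an unadjusted p under 0.05, and their mean level was 6.67 to 8.57 in SZ, 7.04 to 8.17 in IDZ and 7.05 to 9.03 in RZ. The part of fibroblast, macrophage, tendon and adipocyte cells in the higher signals of SZ was not tested.

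**Figure D5:**
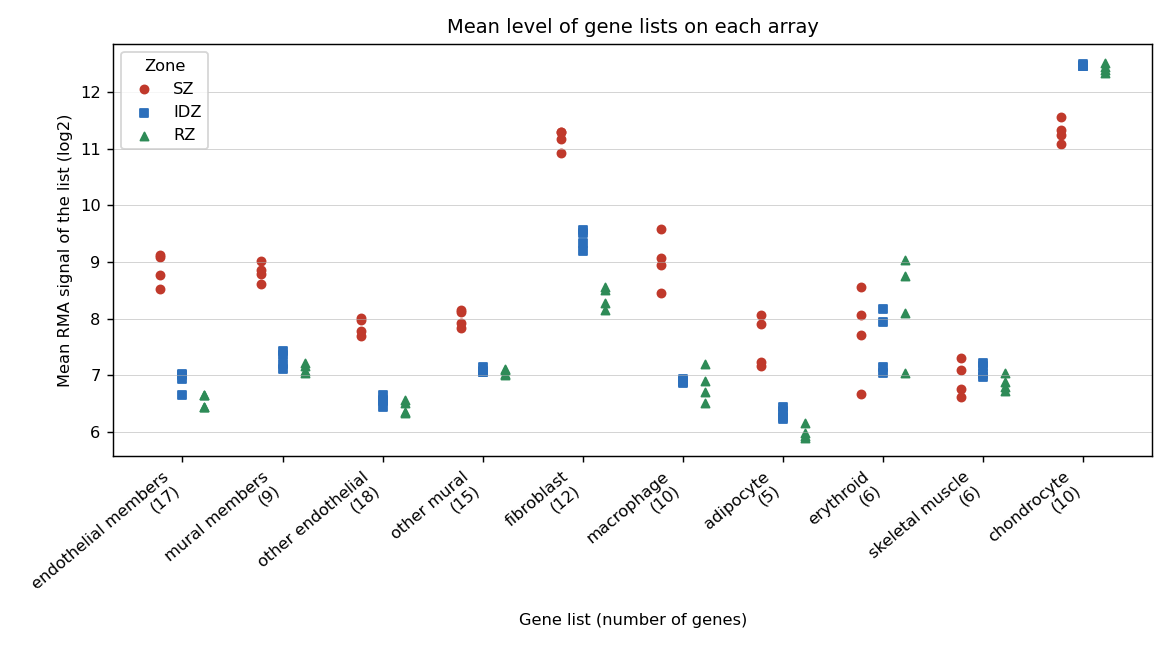
Mean RMA signal (log2) over the genes of each list on each array, with red circles for SZ, blue squares for IDZ and green triangles for RZ and the number of genes under the name of the list; the vertical scale does not start at 0. The endothelial, mural, fibroblast, macrophage and adipocyte lists have all SZ arrays above all IDZ arrays, the erythroid list overlaps, and the chondrocyte list has SZ lowest.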

How the data were processed

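RNA of 12 samples, 4 from each of the zones SZ, IDZ and RZ, had been hybridised to Affymetrix Rat Gene 1.0 ST arrays. The deposited log2 values were made by the authors with robust multi-array averaging (background adjustment, quantile normalization and median polish) in Partek Genomics Suite 6.6, as 1 value per transcript cluster, and were used as deposited without further normalization. After such normalization differences are relative to the other genes of a sample. The probe intensities were not processed again, and the genome build of the array annotation is not given in the sources used here. The number of arrays limits the precision.

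Of 27342 clusters, 15068 carried 1 gene symbol, 323 several and 11951 none, and a gene was the brightest cluster with its symbol alone. A linear model with a mean for each zone was fitted to all 12 arrays with limma 3.58.1 under R 4.3.3, and p-values were adjusted over all clusters by Benjamini-Hochberg. The study's methods name a one-way analysis with a false discovery rate threshold, and its 2-fold minimum was kept. The limma contrasts between zones were chosen here, with a plain one-way contrast and the overall one-way p as alternatives. The fit was tested on simulated data. The labels give the same animals for IDZ and RZ samples that carry 1 number. Deviations of such pairs from their zone means had correlations of 0.02, 0.02, 0.03 and 0.21, and blocks for animals were run as alternatives. The other alternatives were fits of 2 zones, trended and robust variances, other scalings, no dim clusters, no minimum fold, the other Abcc9 cluster and each array left out. Differences within pairs of animals were added after the data were seen.

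The members and all gene lists were chosen with earlier results of these data known. Values on every array are given for the 8 members with the largest difference between SZ and IDZ, for up to 4 members per direction between IDZ and RZ and for members that passed nowhere, and other lists are named by up to 4 genes with the largest difference. The 6 ligands Vegfa, Pgf, Angpt1, Angpt2, Apln and Adm were named for their receptors. Vegfb and genes named as the only exceptions of a count were chosen after their values were seen. Python 3.11.15 with pandas 2.3.3 made the tables, and matplotlib 3.10.9 the plots.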

Additional observations from a re-analysis of the deposited data

Results flagged for a closer look

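In 7 of 96 groups of 4 arrays examined, 26 members and 6 ligands in each of 3 zones, 1 array stood apart from the other 3 by more than Dixon's 95% limit for 4 samples. Chance alone gives about 1 in 20 such groups. In sample 4 of its zone, Tek was low in IDZ at 5.53 against 5.75 to 5.79, Sox18 was low in IDZ at 5.63 against 6.30 to 6.31, Rhoj was low in SZ at 10.46 against 11.01 to 11.03 and Ramp2 was high in RZ at 7.87 against 7.65 to 7.68. S1pr1 was high on RZ sample 2 at 7.41 against 7.18 to 7.20, Rgs5 was high on SZ sample 1 at 12.01 against 11.40 to 11.49 and Adm was high on RZ sample 1 at 9.24 against 8.74 to 8.77.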

How the results depend on the processing

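Without a minimum fold, 1 member (Cspg4) passed as higher in IDZ than SZ, 1 (Cspg4) as higher in RZ than SZ and 2 (Rhoj and Mylk) as higher in IDZ than RZ. With the overall one-way p, which tests any difference among the 3 zones, 19 members higher in IDZ than RZ and 5 higher in RZ met the p alone, against 23.5% of all clusters in either direction and 11.5% higher in IDZ. With each array left out in turn, 19 to 20 members were called higher in SZ than IDZ and 20 to 22 higher in SZ than RZ. Between IDZ and RZ 1 to 2 were called higher in IDZ, the second being Cd34 without IDZ sample 4. Of all clusters 2.61% to 3.58%, 3.02% to 3.65% and 0.494% to 0.556% were called in these 3 comparisons. The medians ran from 1.79 to 2.02, from 2.16 to 2.38 and from 0.21 to 0.30. The replicate block gave 1 call between IDZ and RZ, Rhoj, as without it, beside 0.527% of all clusters. The random block for animals gave 19 calls between SZ and IDZ, without Sox17 (0.99), and 22 between SZ and RZ. Beside these stood 2.96% and 3.19% of all clusters. Centring on medians and a second quantile normalization each gave 20 calls between SZ and RZ, beside 3.12% and 3.11% of all clusters. Here Egfl7 (0.99 and 0.9968) and Fli1 (0.98 and 0.96) were just under 2-fold. Among 1739 differences of single members under the alternatives with the 2-fold minimum, 1713 kept direction and call, 16 lost a call, 1 gained one and 9 changed sign. All 9 lay between IDZ and RZ in members that did not pass, and the sign of values this close to 0 is not settled: Flt1 was -0.0066 and Ramp2 0.017 after quantile normalization, and with arrays left out in turn Flt1 ran from -0.019 to 0.14, Ramp2 from -0.073 to 0.038, Cnn1 from -0.090 to 0.029 and Myh11 from -0.083 to 0.011. The cause was not tested.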
